A study of Mus musculus with 18 samples.

Results

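The p53 module described here comprised 33 genes of the 55487 genes in the count tables: Trp53, which encodes p53, together with regulators and target genes of p53. Members were chosen as a hand-written list of symbols, matched to Ensembl identifiers, by a rule that uses no measured value but was written with earlier results of these data known. Cdkn1a, Bax, Bbc3 and Fas, which are also p53 targets, were not part of the list. The cells were WEHI-231, a murine line of an immature B cell lymphoma. RNA was sequenced from 3 genotypes, parental cells and the clones #A-59 and #B-20, each a single clone isolated after Cas9 ribonucleoproteins had been targeted to Tfeb, the gene of the lysosomal transcription factor TFEB. Each genotype was sequenced at rest (0 h) and after 6 or 18 h of culture with F(ab')2 fragments of anti-IgM at 10 µg/ml, which crosslink the BCR, with 2 libraries for each of the 9 groups, from independent experiments per the study's methods. A difference between a clone and parental cells can therefore not be told apart from a property of that single clone.

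p53 is a transcription factor whose protein is kept low by the ubiquitin ligase Mdm2 and accumulates after DNA damage and other stress. It then activates genes for cell cycle arrest, DNA repair and cell death, as well as Mdm2 and the phosphatase gene Ppm1d, which restrain it in turn. Much of this control acts on the p53 protein, which RNA counts do not measure. WEHI-231 cells are widely used as a model of immature B cells, in which crosslinking of surface IgM leads to growth arrest and apoptosis. Several target genes of p53 also respond to other factors, for example Ccng2 and Sesn1 to FoxO proteins and Gadd45b to NF-κB.

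Library totals ranged from 11223588 to 29655262 counts, and mitochondrial transcripts took 1.25% to 2.18% of them. Levels are given as counts per Mio after TMM scaling (CPM). Tfeb RNA was at 79.2 to 99.9 CPM in parental libraries, 25.5 to 40.5 CPM in #A-59 and 34.2 to 54.1 CPM in #B-20, so that the transcript was reduced and not absent in the clones. The 7 B cell markers (Cd79a, Cd79b, Ms4a1, Pax5, Cd22, Ighm and Ptprc) summed to 5813 to 12464 CPM and were detected in each library. The 3 T cell markers summed to at most 0.467 CPM, while Lyz2, Csf1r and Itgam together ranged from 0.612 to 26.9 CPM, and Col1a1 and Epcam from 10.1 to 41.5 CPM.

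Of the 33 members, 29 passed the filter on low counts and were tested. Phlda3, Perp and Eda2r had 0 counts in all 18 libraries, and Plk2 had 1 count in 1 library. A count of 0 is compatible with up to 3 counts in a library, so that these 4 genes were not detectable at this depth. Phlda3, Perp and Eda2r belong to the cell death genes, of which 5 of 8 were tested, whereas Plk2 encodes a kinase of the cell cycle group, of which 9 of 10 were tested. Among the tested members, the level per kb of the longest transcript averaged 107 CPM per kb for Rps27l and 79.6 CPM per kb for Ccng1, the highest of the list, and 1.40 CPM per kb for Gadd45g and 1.49 CPM per kb for Ephx1, the lowest. The range differed between members: the highest library exceeded the lowest by a median of 2.08-fold, 12 members stayed below 2-fold, and 5 members reached 4-fold or more, with 14.9-fold for Ephx1 as the maximum. Differential expression was tested with edgeR's quasi-likelihood test, and FDR denotes the p-value adjusted by the Benjamini-Hochberg method over the 15318 genes tested. A gene was called a DEG when its FDR was under 0.01 and its log2 fold change exceeded 1 in either direction. By this rule 8 members were called in at least 1 of 12 contrasts, the 6 of a clone with the parental line and the 6 of a stimulated with its untreated group, and 21 tested members in none. The share of all tested genes called in at least 1 of these 12 contrasts was not computed. The pooled count therefore only lists members and does not set them apart from other genes. The p-values measure the spread between these libraries only. Counting was not stranded, and Plk3, Cdip1, Ddb2, Gadd45a, Mdm4, Fbxw7, Zmat3, Ei24, Rrm2b and Xpc overlap other annotated genes by position, introns included. How far this affected their counts was not measured.

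**Figure D1:**
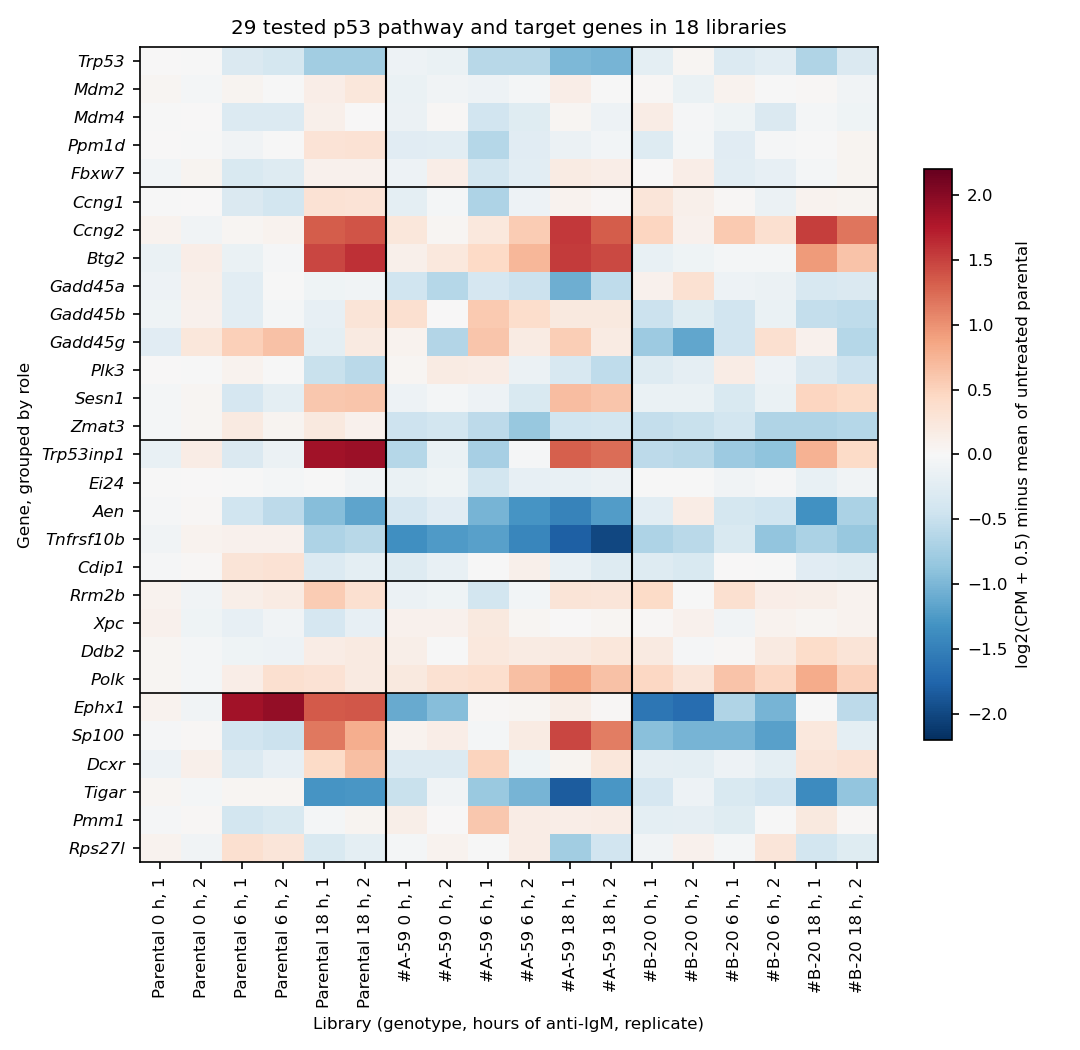
Heatmap of the 29 tested members (vertical axis, ordered by role) in the 18 libraries (horizontal axis, by genotype and hours of anti-IgM). Colour gives the difference of a library's log2(CPM + 0.5), TMM-scaled, from the mean of the untreated parental libraries. Ephx1, Trp53inp1, Btg2, Ccng2 and Sp100 are higher at 18 h than at 0 h in the 3 genotypes. Against parental libraries of the same time, Ephx1 is lower in both clones and Tnfrsf10b is lower in #A-59. Mdm2, at 93.1 to 122 CPM, hardly changes colour.

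Promoter sequences of RefSeq (GRCm38.p6, from 250 bases before to 50 bases after a transcription start) were on hand for 26 members, with 35 start sites. They were searched on both strands for a p53 site, defined as a pair of p53 half-sites with at most 2 mismatches, intact C and G cores and a spacer of at most 13 bases, for CACGTG, the E-box core of the motif bound by TFEB, and for GTAAACA, a FoxO-type site. A p53 site was found in 4.09% of all 32841 windows of the genome and in 4 member windows, those of Ccng1, Rps27l, Gadd45a and a second start of Sesn1. The CACGTG motif stood in 7.15% of all windows and in 5 of the 35 member windows (Trp53, Aen, Eda2r, Gadd45b and Gadd45g), and GTAAACA stood in 3.65% of all windows and in 3 member windows (Mdm2, Eda2r and a first start of Sesn1). Such matches are descriptions of letters, not evidence of binding, and a window without a match says nothing about sites elsewhere. The windows of Ccng1 and Rps27l are shown because they hold the p53 sites closest to the consensus, each with 1 mismatch and no spacer, at positions -195 to -176 and -117 to -98 from the start. The window of Trp53 is shown for its E-box, at position 11 after the start, and those of Ephx1 and Btg2 because these members moved with genotype or stimulation and contain none of the 3 motifs. All are printed 5′ to 3′ on the strand of the gene, with the p53 site or the E-box in capitals.
Ccng1 (chr11:40755237-40755536, minus strand): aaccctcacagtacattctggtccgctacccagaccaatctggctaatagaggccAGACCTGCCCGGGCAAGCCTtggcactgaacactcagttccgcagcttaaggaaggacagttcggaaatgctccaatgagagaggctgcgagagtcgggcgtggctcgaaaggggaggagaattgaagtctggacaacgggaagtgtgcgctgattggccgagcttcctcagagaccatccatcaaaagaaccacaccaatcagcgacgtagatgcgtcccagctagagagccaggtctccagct
Rps27l (chr9:66946163-66946462, plus strand): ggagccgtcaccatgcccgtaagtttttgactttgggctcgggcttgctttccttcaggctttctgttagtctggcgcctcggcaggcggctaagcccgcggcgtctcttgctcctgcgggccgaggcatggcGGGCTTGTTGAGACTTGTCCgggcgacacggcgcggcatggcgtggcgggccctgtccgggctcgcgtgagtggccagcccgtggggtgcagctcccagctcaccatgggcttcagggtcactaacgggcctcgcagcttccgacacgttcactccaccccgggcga
Trp53 (chr11:69580109-69580408, plus strand): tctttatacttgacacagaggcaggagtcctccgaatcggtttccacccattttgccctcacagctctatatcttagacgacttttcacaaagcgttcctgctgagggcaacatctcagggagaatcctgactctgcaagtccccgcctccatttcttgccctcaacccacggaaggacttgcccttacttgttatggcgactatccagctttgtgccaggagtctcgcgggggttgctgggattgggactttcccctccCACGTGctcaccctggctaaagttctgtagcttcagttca
Ephx1 (chr1:181017520-181017819, minus strand): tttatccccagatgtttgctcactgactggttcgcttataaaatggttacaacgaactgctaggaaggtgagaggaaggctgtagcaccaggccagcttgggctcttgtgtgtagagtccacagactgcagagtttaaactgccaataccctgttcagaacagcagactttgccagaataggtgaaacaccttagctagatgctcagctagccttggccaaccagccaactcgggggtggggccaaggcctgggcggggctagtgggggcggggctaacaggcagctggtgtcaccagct
Btg2 (chr1:134079106-134079405, minus strand): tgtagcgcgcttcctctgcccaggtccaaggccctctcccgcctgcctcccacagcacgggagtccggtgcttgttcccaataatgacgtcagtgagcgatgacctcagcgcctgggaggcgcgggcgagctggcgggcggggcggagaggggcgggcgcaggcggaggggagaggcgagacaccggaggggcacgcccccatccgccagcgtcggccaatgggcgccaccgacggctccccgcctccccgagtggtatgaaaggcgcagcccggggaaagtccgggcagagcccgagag
The sites of the other 2 members had 2 mismatches each and a spacer, printed in lower case between the half-sites.
Gadd45a (positions -56 to -31, spacer of 6 bases): GGACCTGGTTggctgaGGGCTAGCCC
Sesn1 (positions -186 to -164 of the second start, spacer of 3 bases): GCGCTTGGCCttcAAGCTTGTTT

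The response to BCR stimulation was examined first, by comparing stimulated with untreated cells within each genotype. Trp53 RNA fell during stimulation, whereas Mdm2, the ligase that degrades p53 and itself a standard p53 target, did not pass the test in any comparison. Trp53 stood at 219 and 215 CPM before stimulation, 175 and 167 CPM after 6 h, and 128 and 127 CPM after 18 h in parental cells. In #A-59 it was at 202 and 197 CPM before stimulation, 142 and 142 CPM after 6 h, and 109 and 107 CPM after 18 h. In #B-20 the levels were 186 and 224 CPM before stimulation, 177 and 184 CPM after 6 h, and 138 and 175 CPM after 18 h. The 18 h libraries were below the untreated ones in each genotype, without overlap, and the #B-20 libraries at 18 h were above those of the other genotypes. At 18 h Trp53 was lower by 1.70-fold in parental cells (log2 fold change -0.77, SE 0.10, FDR = 7.58e-06), by 1.84-fold in #A-59 (log2 fold change -0.88, SE 0.10, FDR = 1.81e-06) and by 1.31-fold in #B-20 (log2 fold change -0.39, SE 0.10, FDR = 0.00544). These changes passed an FDR of 0.05 but not the fold limit of a DEG. Whether fewer cells in a given state or less RNA per cell underlies such a difference cannot be told apart in bulk samples.

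Mdm2 was at 105 and 100.3 CPM before stimulation, 108 and 102 CPM after 6 h, and 113 and 122 CPM after 18 h in parental cells. The #A-59 libraries gave 93.2 and 97.1 CPM before stimulation, 95.1 and 99.3 CPM after 6 h, and 114 and 102 CPM after 18 h for this gene. Those of #B-20 gave 105 and 93.1 CPM before stimulation, 108 and 102 CPM after 6 h, and 105 and 97.4 CPM after 18 h. All libraries thus lay within 93.1 to 122 CPM, and no comparison of Mdm2 reached an FDR of 0.05. Its 18 h changes were 0.20 (SE 0.09, FDR = 0.0812), 0.18 (SE 0.09, FDR = 0.105) and 0.03 (SE 0.09, FDR = 0.808) on the log2 scale in parental, #A-59 and #B-20 cells. Mdm4, a relative of Mdm2 that inhibits p53, ranged from 301 to 451 CPM, and Fbxw7, the substrate receptor of a ubiquitin ligase, from 42.0 to 63.6 CPM. Both dipped at 6 h in parental cells (log2 fold change -0.30, FDR = 0.0413, and -0.31, FDR = 0.0406) and were at 0.06 and 0.09 at 18 h, where neither passed an FDR of 0.05 (FDR = 0.664 and 0.487). In #A-59 both were likewise lower at 6 h at an FDR under 0.05, whereas neither passed that limit in #B-20. Ppm1d, which encodes the phosphatase Wip1, was 1.24-fold higher at 18 h in parental cells (log2 fold change 0.31, FDR = 0.0308).

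More members were called after 18 h than after 6 h. After 6 h, 1 of 29 tested members was called in parental cells (Ephx1, higher), where 2.62% of all genes were called, and 1 in #A-59 (again Ephx1, against 1.39% of all genes). In #B-20 edgeR called 0 members against 0.385% of all genes, and DESeq2 called 0 members. In edgeR 7 members had an unadjusted p under 0.05 there, where 14.9% of all genes did. After 18 h, 6 members were called in parental cells (4 higher and 2 lower, against 10.3% of all genes), 7 in #A-59 (5 higher and 2 lower, 8.76%) and 4 in #B-20 (4 higher, 2.93% of all genes were called higher and 4.80% in either direction). The #B-20 count rested on single libraries: it was 1 without replicate 1 at 18 h, 2 without replicate 2 at 0 h, and 7 without replicate 2 at 18 h. The median log2 fold change of the members at 18 h was 0.09, 0.14 and 0.00 in parental, #A-59 and #B-20 cells, beside 0.04, 0.02 and 0.03 over all tested genes. With FDR under 0.05 as the only limit, 7 members passed at 6 h in parental cells (12.8% of all genes), 9 did so in #A-59 (13.8%) and 2 in #B-20 (2.87%). By the same limit, 16 members passed at 18 h in parental cells (43.8% of all genes), 15 did so in #A-59 (44.2%) and 13 in #B-20 (35.1%). By that limit 7 members were higher in each of the 3 genotypes (Ccng2, Btg2, Sesn1, Trp53inp1, Ephx1, Sp100 and Dcxr), where 12.2% of all genes were, and 3 were lower in each (Trp53, Aen and Tigar), where 12.9% of all genes were.

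**Figure D2:**
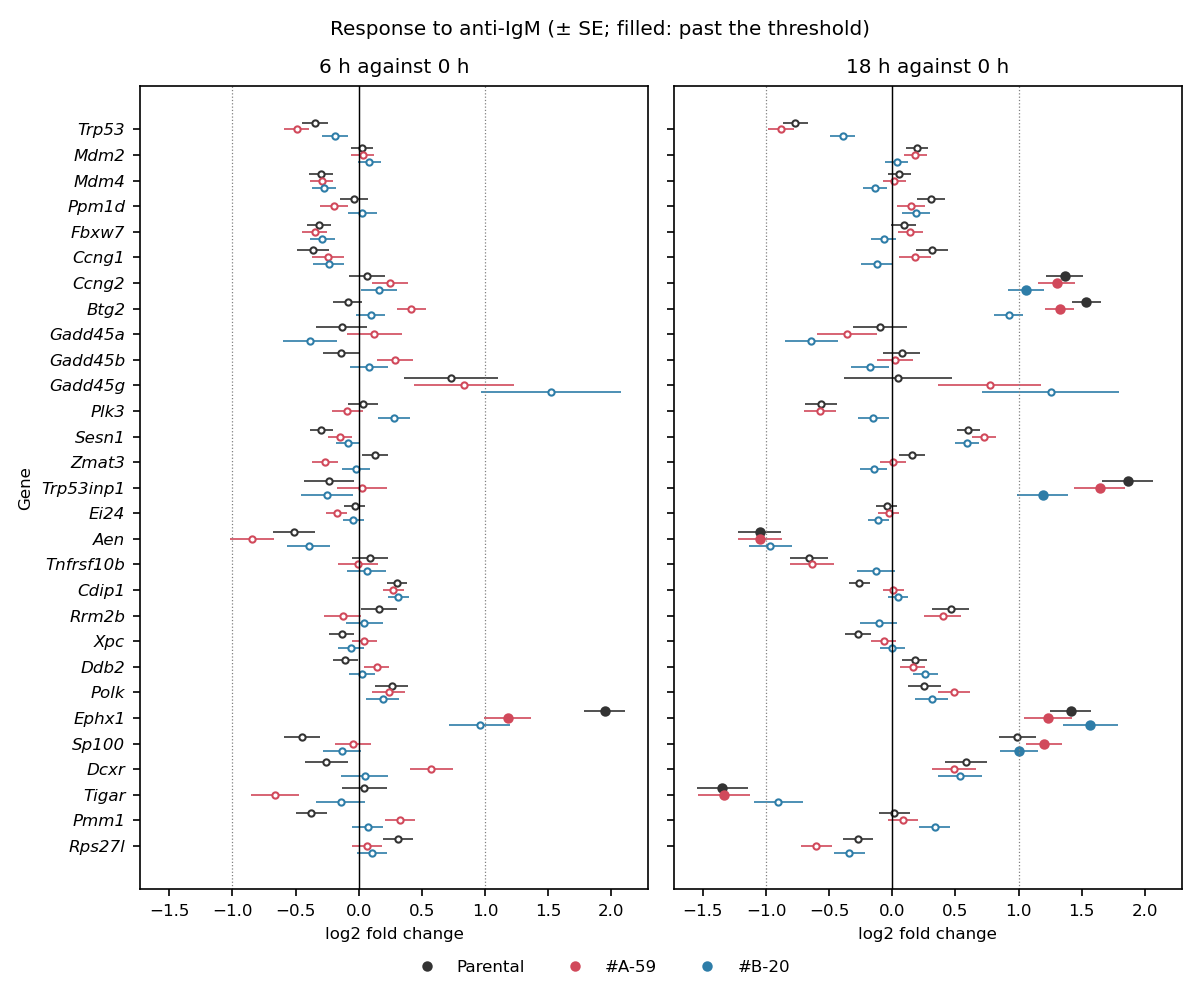
Log2 fold changes of the 29 tested members after 6 and 18 h of anti-IgM against untreated cells, by genotype, with error bars of 1 SE from the edgeR fit over 18 libraries. Filled points are DEGs. Ephx1 and Gadd45g, a gene of few counts, stand furthest to the right at 6 h, and at 18 h Trp53inp1, Btg2, Ccng2, Ephx1 and Sp100 stand to the right while Tigar, Aen and Trp53 stand to the left. Gadd45g also stands to the right at 18 h for #B-20 (1.25), where it is no DEG.

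Among the growth arrest genes, Ccng2 and Btg2 rose after 18 h and Ccng1 did not. Ccng1 encodes cyclin G1, one of the most regular p53 targets, which recruits a phosphatase to Mdm2. In parental cells Ccng1 was at 292 and 293 CPM before stimulation, 234 and 222 CPM after 6 h, and 366 and 361 CPM after 18 h. The #A-59 levels of Ccng1 were 251 and 286 CPM before stimulation, 184 and 270.5 CPM after 6 h, and 308 and 299 CPM after 18 h. For #B-20 they were 353 and 316 CPM before stimulation, 299.5 and 268 CPM after 6 h, and 309.7 and 304 CPM after 18 h. Parental libraries were higher at 18 h than at 0 h without overlap, whereas those of #B-20 were lower at 18 h than at 0 h. No comparison of Ccng1, whose promoter holds the p53 site printed above, reached an FDR of 0.05; its parental 18 h change was 0.31 (SE 0.12, FDR = 0.0505).

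Ccng2, which encodes cyclin G2, a cyclin associated with arrest that is also a FoxO target, was at 196 and 176 CPM before stimulation, 192 and 197 CPM after 6 h, and 470.2 and 487 CPM after 18 h in parental cells. In #A-59 Ccng2 reached 222 and 191 CPM before stimulation, 217 and 273 CPM after 6 h, and 548 and 469.6 CPM after 18 h. In #B-20 it reached 259 and 199 CPM before stimulation, 277 and 236 CPM after 6 h, and 533 and 420.0 CPM after 18 h. Every 18 h library exceeded every 0 h and 6 h library, and the 6 h libraries overlapped those at 0 h in each genotype. At 18 h Ccng2 was 2.58-fold higher in parental cells (log2 fold change 1.36, SE 0.14, FDR = 8.18e-07), 2.46-fold in #A-59 (log2 fold change 1.30, SE 0.14, FDR = 1.61e-06) and 2.08-fold in #B-20 (log2 fold change 1.06, SE 0.14, FDR = 2.90e-05). The #B-20 call was lost without replicate 1 at 18 h (0.85) and without replicate 2 at 0 h (0.88), both below the fold limit.

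Btg2, an antiproliferative transcriptional cofactor, stood at 178 and 216 CPM before stimulation, 177 and 193 CPM after 6 h, and 546 and 597 CPM after 18 h in parental cells. Clone #A-59 had Btg2 at 212 and 229.8 CPM before stimulation, 266 and 324 CPM after 6 h, and 569 and 538 CPM after 18 h. Clone #B-20 had it at 175 and 183 CPM before stimulation, 191 and 191 CPM after 6 h, and 374 and 304 CPM after 18 h. The 18 h libraries were above all others of their genotype, and those of #B-20 were below the 18 h libraries of parental cells and #A-59. Btg2 rose 2.90-fold in parental cells (log2 fold change 1.54, SE 0.12, FDR = 1.48e-08) and 2.51-fold in #A-59 (log2 fold change 1.33, SE 0.12, FDR = 8.26e-08), whereas the change in #B-20 was 0.92 (SE 0.12, FDR = 9.80e-06), short of the fold limit.

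Of the remaining growth arrest genes, Sesn1, a sestrin that restrains mTORC1 and limits oxidative stress, rose at 18 h by 1.52-fold, 1.65-fold and 1.51-fold in parental, #A-59 and #B-20 cells at FDR = 3.87e-05, 5.40e-06 and 8.95e-05, after a lower level at 6 h in parental cells (log2 fold change -0.29, FDR = 0.0434). Plk3, a stress-responsive polo-like kinase, was lower at 18 h in parental cells (log2 fold change -0.56, FDR = 0.00141) and #A-59 (-0.57, FDR = 0.00110), and at -0.15 in #B-20 (FDR = 0.385). The gene overlaps Tctex1d4. The Gadd45 genes encode small stress sensors that bind kinases and PCNA. Gadd45a ranged from 1.41 to 4.59 CPM and Gadd45g from 0.372 to 2.50 CPM, with as few as 6 counts in a library, whereas Gadd45b ranged from 37.2 to 82.2 CPM. Only Gadd45a in #B-20 changed among them at 18 h by the FDR limit of 0.05 (log2 fold change -0.64, FDR = 0.0229). Zmat3, an RNA-binding zinc finger protein, showed no response at that limit in any genotype, with 18 h changes of 0.16, 0.01 and -0.15 (FDR = 0.247, 0.978 and 0.313).

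The cell death genes moved in both directions: Trp53inp1 rose and Aen fell after 18 h. Trp53inp1 encodes a nuclear stress protein that promotes autophagy and p53-dependent death. In parental cells Trp53inp1 was at 109 and 136 CPM before stimulation, 97.3 and 111 CPM after 6 h, and 440.4 and 453 CPM after 18 h. The #A-59 libraries held Trp53inp1 at 79.0 and 110.3 CPM before stimulation, 73.1 and 119.8 CPM after 6 h, and 303 and 287 CPM after 18 h. The #B-20 libraries held it at 81.5 and 80.2 CPM before stimulation, 70.2 and 65.5 CPM after 6 h, and 207 and 163 CPM after 18 h. The 18 h libraries were the highest in every genotype, and they were ordered without overlap, with parental cells above #A-59 and #A-59 above #B-20. The gene rose 3.64-fold in parental cells (log2 fold change 1.86, SE 0.20, FDR = 3.73e-06), 3.12-fold in #A-59 (log2 fold change 1.64, SE 0.20, FDR = 1.39e-05) and 2.28-fold in #B-20 (log2 fold change 1.19, SE 0.20, FDR = 3.88e-04). Without replicate 1 of #B-20 at 18 h the last value was 0.99 and the call was lost.

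Aen, a nuclease that degrades DNA during apoptosis, was at 131 and 136 CPM before stimulation, 98.4 and 88.8 CPM after 6 h, and 69.7 and 59.5 CPM after 18 h in parental cells. For Aen in #A-59 the values were 104 and 112 CPM before stimulation, 65.7 and 54.1 CPM after 6 h, and 47.8 and 56.5 CPM after 18 h. For Aen in #B-20 they were 113 and 149 CPM before stimulation, 101 and 98.0 CPM after 6 h, and 52.6 and 81.9 CPM after 18 h. All 18 h libraries were below all untreated libraries of the same genotype. Aen was lower by 2.07-fold at 18 h in parental cells (log2 fold change -1.05, SE 0.17, FDR = 1.23e-04) and by 2.07-fold in #A-59 (log2 fold change -1.05, SE 0.17, FDR = 1.37e-04). In #B-20 the change of -0.97 (SE 0.17, FDR = 4.05e-04) did not pass the fold limit. The parental call was lost without replicate 2 at 18 h (-0.96), and the #A-59 call without replicate 2 at 0 h (-0.997) or replicate 1 at 18 h (-0.96).

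Tnfrsf10b, the mouse receptor of the death ligand TRAIL, was lower at 18 h in parental cells (log2 fold change -0.66, FDR = 0.00150) and #A-59 (-0.64, FDR = 0.00563), while #B-20 stood at -0.13 (FDR = 0.552). Cdip1, a proapoptotic membrane protein whose gene overlaps Hmox2, was higher at 6 h in parental cells (0.31, FDR = 0.0152), #A-59 (0.28, FDR = 0.0309) and #B-20 (0.31, FDR = 0.0468), and lower at 18 h in parental cells (-0.26, FDR = 0.0143). Ei24, a membrane protein of the endoplasmic reticulum, ranged from 68.8 to 92.0 CPM and did not pass an FDR of 0.05 in any response.

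The 4 DNA repair and nucleotide supply genes changed by less than 2-fold, and none was called. Rrm2b, the ribonucleotide reductase subunit that supplies deoxynucleotides outside S phase, was 1.38-fold higher at 18 h in parental cells (FDR = 0.0148) and 1.32-fold in #A-59 (FDR = 0.0334), with -0.11 on the log2 scale in #B-20 (FDR = 0.602). Xpc, a damage sensor of nucleotide excision repair, was lower at 18 h in parental cells (-0.27, FDR = 0.0364). Polk, a translesion DNA polymerase, was higher at 18 h in #A-59 (0.49, FDR = 0.00494). Ddb2, a further damage sensor, whose gene overlaps Acp2, ranged from 28.8 to 41.5 CPM and did not reach an FDR of 0.05 in a response at 6 h or in parental cells and #A-59 at 18 h; its #B-20 change was 0.26 (FDR = 0.0503).

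Ephx1 (chr1:180989556-181017569 in GRCm38), which encodes microsomal epoxide hydrolase, a detoxifying enzyme of the endoplasmic reticulum, was the member with the widest range and was called in 11 of the 12 comparisons. Parental cells held Ephx1 at 7.85 and 6.99 CPM before stimulation, 27.8 and 29.6 CPM after 6 h, and 19.5 and 19.97 CPM after 18 h. In #A-59 it was at 3.15 and 3.62 CPM before stimulation, 7.57 and 7.67 CPM after 6 h, and 8.17 and 7.60 CPM after 18 h. In #B-20 it was at 2.14 and 1.98 CPM before stimulation, 4.53 and 3.40 CPM after 6 h, and 7.39 and 4.81 CPM after 18 h. Every parental library exceeded every #A-59 and #B-20 library of the same time, and every stimulated library exceeded the untreated libraries of its genotype. Parental levels were highest at 6 h, whereas those of #B-20 were highest at 18 h. At 6 h Ephx1 rose 3.86-fold in parental cells (log2 fold change 1.95, SE 0.16, FDR = 1.52e-07) and 2.26-fold in #A-59 (log2 fold change 1.18, SE 0.19, FDR = 4.35e-04), and the #B-20 change was 0.96 (SE 0.24, FDR = 0.0343). The #A-59 call was lost when only the 2 groups compared entered the fit (1.18, FDR = 0.0254). At 18 h the gene was higher by 2.66-fold, 2.35-fold and 2.96-fold in parental, #A-59 and #B-20 cells (FDR = 1.74e-06, 4.17e-05 and 2.82e-05).

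Sp100 encodes a component of PML nuclear bodies that is also induced by interferon, and its counts may include reads of related copies, which was not measured. In parental cells Sp100 was at 123 and 128 CPM before stimulation, 93.6 and 90.7 CPM after 6 h, and 282 and 218 CPM after 18 h. Sp100 in #A-59 was at 133 and 139 CPM before stimulation, 122 and 143 CPM after 6 h, and 351 and 275 CPM after 18 h. Sp100 in #B-20 was at 66.1 and 61.8 CPM before stimulation, 61.8 and 54.9 CPM after 6 h, and 147 and 109 CPM after 18 h. The 18 h libraries were the highest of each genotype, and each #B-20 library was below all parental and #A-59 libraries of its time. At 18 h Sp100 was called higher in #A-59 (log2 fold change 1.20, SE 0.14, FDR = 3.82e-06) and #B-20 (log2 fold change 1.002, SE 0.15, FDR = 6.05e-05), while the parental change of 0.99 (SE 0.14, FDR = 2.69e-05) lay just below the fold limit. The #B-20 value sat on that limit: the call was lost under DESeq2, DESeq2's size factors and the replicate block, and in 13 of 18 fits that left out a library (0.74 to 1.18), that is, in all but those without either #A-59 library at 0 h, replicate 2 of #A-59 at 6 h, replicate 1 of #B-20 at 0 h or replicate 2 of #B-20 at 18 h. The #A-59 call was lost without replicate 1 at 18 h (0.99).

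Tigar, a phosphatase that lowers glycolytic flux, was at 18.1 and 16.9 CPM before stimulation, 18.0 and 18.1 CPM after 6 h, and 6.78 and 6.95 CPM after 18 h in parental cells. The #A-59 values of Tigar were 12.3 and 16.6 CPM before stimulation, 9.70 and 8.39 CPM after 6 h, and 4.56 and 6.93 CPM after 18 h. Those of #B-20 were 13.4 and 16.1 CPM before stimulation, 13.8 and 12.9 CPM after 6 h, and 6.36 and 9.40 CPM after 18 h. Tigar was lower at 18 h than at 0 h in every library pair of each genotype, by 2.55-fold in parental cells (log2 fold change -1.35, SE 0.20, FDR = 2.63e-05) and 2.52-fold in #A-59 (log2 fold change -1.33, SE 0.20, FDR = 3.73e-05), with -0.90 in #B-20 (SE 0.19, FDR = 0.00133). Dcxr, a reductase of sugars and dicarbonyls, was higher at 18 h in the 3 genotypes by 1.50-fold, 1.40-fold and 1.45-fold (FDR = 0.00901, 0.0304 and 0.0237). Rps27l, a ribosomal protein with the close paralog Rps27, was lower at 18 h in #A-59 (-0.60, FDR = 5.48e-04) and #B-20 (-0.34, FDR = 0.0346), with -0.27 in parental cells (FDR = 0.0781). Pmm1, a phosphomannomutase, was lower at 6 h in parental cells (-0.38, FDR = 0.0479) and higher at 18 h in #B-20 (0.33, FDR = 0.0401).

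**Figure D3:**
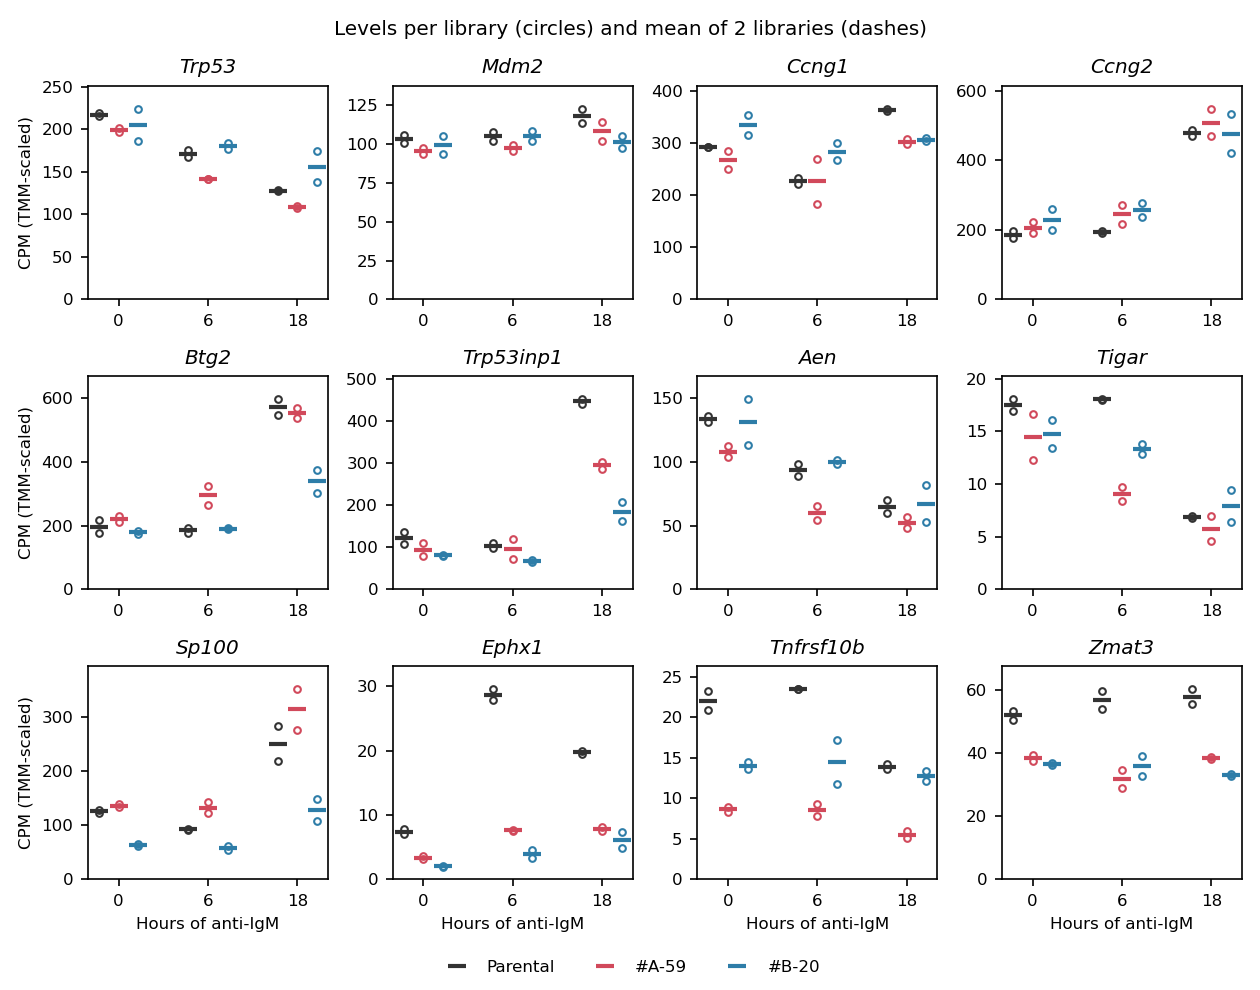
TMM-scaled CPM of the members called in at least 1 of the 12 comparisons and of Trp53, Mdm2, Ccng1 and Zmat3, by hours of anti-IgM, with 1 circle per library and a dash at the mean of 2 libraries for each genotype; each vertical axis starts at 0. Ephx1 lies highest in parental cells, with a peak at 6 h of 27.8 and 29.6 CPM, Tnfrsf10b lies lowest in #A-59 and Sp100 lowest in #B-20.

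Clones were then compared with parental cells at the same time, to ask how the module differed in TFEB mutant cells. The comparisons at a given time share the parental libraries, so that the values of both clones are given side by side and not counted as independent. Few members were called and all of them were lower. In #A-59 these were Tnfrsf10b and Ephx1 at each time, that is, 2 of 29 members. Of all genes 4.78% were called at 0 h (2.48% as lower), 7.91% at 6 h (3.64% as lower) and 4.92% at 18 h (2.91% as lower). In #B-20, Ephx1 was called at 0 h (1 member, against 5.16% of all genes, 3.37% as lower) and 6 h (1 member, 6.73%, 3.85% as lower), and Ephx1 and Trp53inp1 at 18 h (2 members, 6.21%, 4.30% as lower). The #B-20 count was 2 at 0 h without replicate 1 of #B-20 or of parental cells at 0 h, and 2 at 6 h without replicate 1 of #B-20 at 6 h. Median log2 fold changes of the members in #A-59 were -0.11, -0.11 and -0.11 at 0, 6 and 18 h, beside -0.01, -0.01 and -0.02 for all tested genes. In #B-20 they were -0.14, 0.00 and -0.12, beside 0.00, 0.01 and 0.01. At an FDR under 0.05 with no fold limit, 17 members differed in #A-59 at 6 h (7 higher and 10 lower, where 33.6% of all genes differed), 3 at 0 h (15.6%) and 7 at 18 h (17.2%). The counts for #B-20 were 6 at 0 h (17.8%), 6 at 6 h (23.5%) and 9 at 18 h (23.0%). In #A-59 at 6 h, Btg2, Gadd45b, Xpc, Ddb2, Sp100, Dcxr and Pmm1 were higher. Trp53, Ppm1d, Zmat3, Ei24, Aen, Tnfrsf10b, Cdip1, Rrm2b, Ephx1 and Tigar were lower there. By that limit Cdip1 was also lower in #B-20 at 0 and 6 h, Trp53inp1 in #B-20 at 6 h and Gadd45a in #A-59 at 18 h.

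Ephx1, with the levels given above, was lower in #A-59 by 2.21-fold at 0 h (log2 fold change -1.14, SE 0.19, FDR = 1.91e-04), 3.77-fold at 6 h (log2 fold change -1.91, SE 0.16, FDR = 4.86e-08) and 2.50-fold at 18 h (log2 fold change -1.32, SE 0.17, FDR = 1.50e-05). In #B-20 the gene was lower by 3.60-fold (log2 fold change -1.85, SE 0.22, FDR = 4.15e-06), 7.16-fold (log2 fold change -2.84, SE 0.18, FDR = 8.23e-10) and 3.23-fold (log2 fold change -1.69, SE 0.17, FDR = 4.20e-07) at these times. All 6 calls of Ephx1 were kept in every alternative and without any single library.

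Tnfrsf10b (chr14:69767472-69784411), the death receptor, was at 20.9 and 23.3 CPM before stimulation, 23.5 and 23.5 CPM after 6 h, and 13.6 and 14.2 CPM after 18 h in parental cells. In #A-59 Tnfrsf10b was at 8.33 and 9.01 CPM before stimulation, 9.32 and 7.79 CPM after 6 h, and 5.97 and 5.13 CPM after 18 h. In #B-20 it was at 13.6 and 14.4 CPM before stimulation, 17.3 and 11.8 CPM after 6 h, and 13.4 and 12.2 CPM after 18 h. Each #A-59 library was below each parental library of its time, and #B-20 lay between them at 0 and 6 h and just below parental cells at 18 h. Tnfrsf10b was lower in #A-59 by 2.55-fold at 0 h (log2 fold change -1.35, SE 0.15, FDR = 2.48e-06), 2.73-fold at 6 h (log2 fold change -1.45, SE 0.15, FDR = 6.96e-07) and 2.51-fold at 18 h (log2 fold change -1.33, SE 0.17, FDR = 1.64e-05), again in every alternative. In #B-20 the changes were -0.65 (FDR = 0.00422), -0.68 (FDR = 0.00208) and -0.12 (FDR = 0.632), none of which passed the fold limit.

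Zmat3 was lower in both clones at each time without reaching a 2-fold change. In parental cells Zmat3 was at 50.5 and 53.1 CPM before stimulation, 59.5 and 53.7 CPM after 6 h, and 60.2 and 55.4 CPM after 18 h. In the clones it ranged from 28.8 to 39.2 CPM, below all parental libraries. The log2 fold changes were -0.43, -0.83 and -0.58 in #A-59 (FDR = 0.00640, 6.71e-06 and 5.97e-04) and -0.50, -0.65 and -0.81 in #B-20 (FDR = 0.00210, 1.23e-04 and 1.39e-05). Trp53inp1 was lower in #B-20 at 18 h by 2.42-fold (log2 fold change -1.27, SE 0.20, FDR = 2.56e-04), and at -0.60 in #A-59 (FDR = 0.0493). Btg2 and Gadd45b, which encode an antiproliferative cofactor and a stress sensor, were higher in #A-59 at 6 h (0.67, FDR = 1.79e-04, and 0.62, FDR = 0.00258) and lower in #B-20 at 18 h (-0.75, FDR = 7.14e-05, and -0.63, FDR = 0.00427). At an FDR under 0.05 Sp100 was lower in #B-20 at each time (lowest log2 fold change -0.98) and higher in #A-59 at 6 h (0.52), without being called. Pmm1 was higher in #A-59 at 6 h (0.78, FDR = 6.61e-05), and Tigar was lower there (-0.99, FDR = 4.91e-04). Gadd45g was lower in #B-20 at 0 h (-1.56) at an FDR under 0.05 without being called, from 9 and 6 counts in the #B-20 libraries.

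Trp53 differed from parental cells at an FDR under 0.05 in #A-59 at 6 h and in #B-20 at 18 h, and Mdm2 did not in either clone. Trp53 in #A-59 was at -0.12, -0.27 and -0.24 on the log2 scale against parental cells at 0, 6 and 18 h (FDR = 0.508, 0.0479 and 0.129), and in #B-20 at -0.08, 0.08 and 0.29 (FDR = 0.641, 0.642 and 0.0463). For Mdm2 the untreated differences were -0.11 (SE 0.09) in #A-59 and -0.05 (SE 0.09) in #B-20, with FDR = 0.479 and 0.732. Polk was higher in both clones at 18 h (0.52, FDR = 0.00959, and 0.43, FDR = 0.0236), as was Xpc in #B-20 (0.33, FDR = 0.0233). Ppm1d was lower in #A-59 at 6 h (-0.40, FDR = 0.0101) and 18 h (-0.40, FDR = 0.0173).

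**Figure D4:**
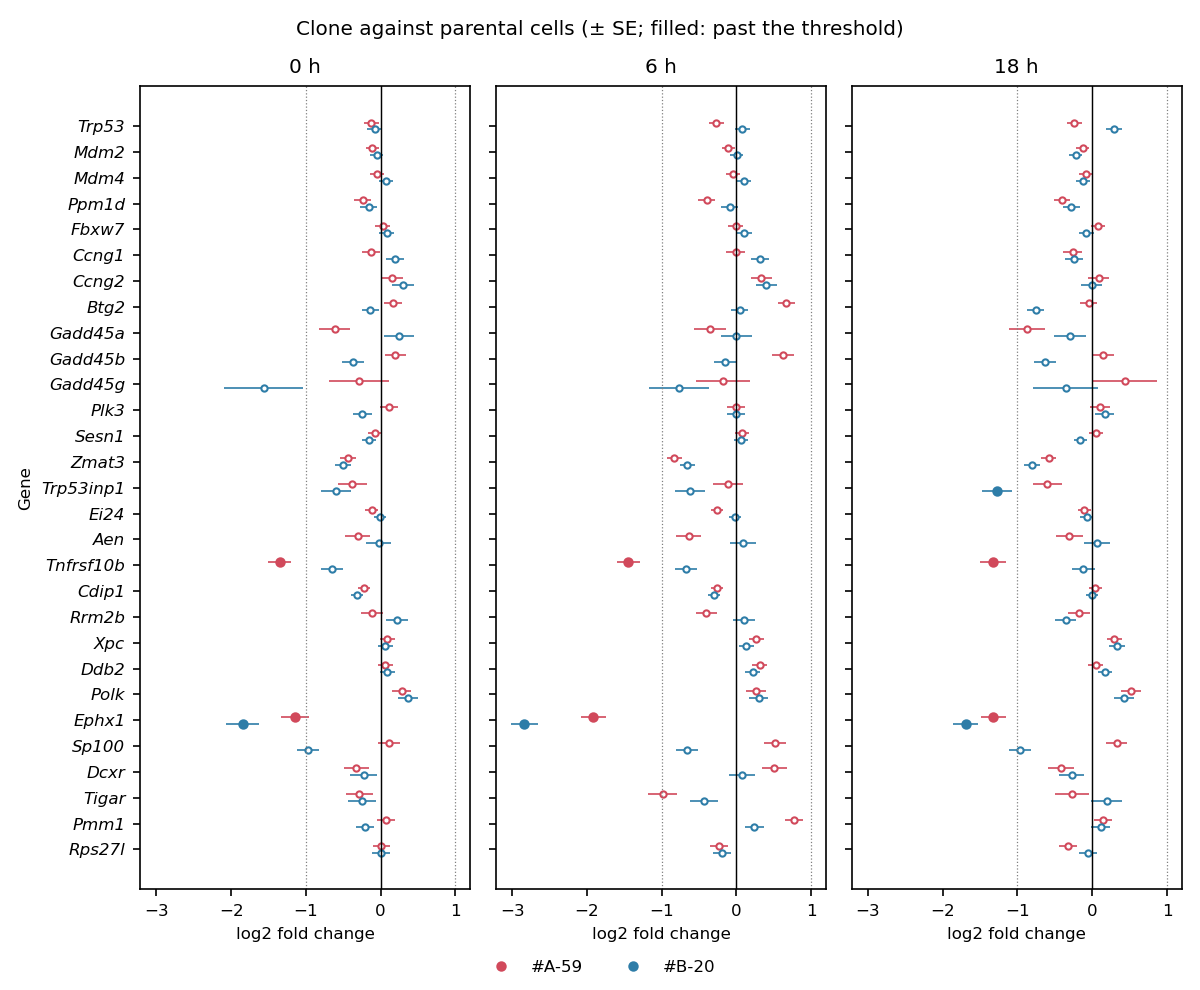
Log2 fold changes of the 29 tested members in #A-59 and #B-20 against parental cells at 0, 6 and 18 h, with error bars of 1 SE from the edgeR fit over 18 libraries; filled points are DEGs, and both clones are set against the same parental libraries. Most members lie between -1 and 1, Ephx1 lies left of -1 in all panels for both clones, and Tnfrsf10b does so for #A-59. For #B-20, Trp53inp1 lies left of -1 at 18 h and Gadd45g, a gene of few counts and no DEG, at 0 h.

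Whether the response of a clone differed from the parental response was tested as an interaction. edgeR called 0 members in each of the 4 interactions, where 0.339% (#A-59, 6 h), 0.0326% (#A-59, 18 h), 0.131% (#B-20, 6 h) and 0.163% (#B-20, 18 h) of all genes were called. DESeq2 also called 0 in each. In edgeR 6, 1, 2 and 8 members, in the same order, had an unadjusted p under 0.05. Of all tested genes 13.9%, 6.67%, 7.45% and 13.6% did. At an FDR under 0.05 edgeR found a difference for Pmm1 alone, in #A-59 at 6 h (log2 fold change 0.71, SE 0.17, FDR = 0.0391; 1.83% of all genes), whereas 0 members passed that limit in edgeR in #B-20 at 6 h (0.568% of all genes) or in #A-59 (0.0979%) and #B-20 (0.712%) at 18 h. The 6 h change of Pmm1, the phosphomannomutase, was -0.38 in parental cells and 0.33 in #A-59. The smaller 6 h rise of Ephx1 in the clones did not pass, at -0.77 (SE 0.25, FDR = 0.136) in #A-59 and -0.99 (SE 0.29, FDR = 0.196) in #B-20. The 18 h differences of Trp53inp1 and Btg2 in #B-20 did not pass in edgeR either (-0.67, SE 0.28, FDR = 0.309, and -0.61, SE 0.16, FDR = 0.0868). DESeq2 gave an FDR of 0.0254 for this difference of Btg2, the 1 member past 0.05 there, and of 0.00822 for Pmm1. These values do not show that the responses were alike. Without replicate 2 of #A-59 at 6 h, 1 member (Dcxr) was called in the 6 h interaction.

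The clones also differed from each other, by the FDR limit of 0.05 in 5 members at 0 h (where 16.1% of all genes differed), 12 at 6 h (32.1%) and 6 at 18 h (26.4%). Sp100 was lower in #B-20 than in #A-59 by 2.13-fold at 0 h (log2 fold change -1.09, SE 0.15, FDR = 4.95e-05), 2.26-fold at 6 h (log2 fold change -1.18, SE 0.15, FDR = 1.51e-05) and 2.45-fold at 18 h (log2 fold change -1.29, SE 0.15, FDR = 4.13e-06). It was the 1 of 29 members called at 0 h (3.85% of all genes) and at 6 h (5.82%). At 18 h 2 members were called (4.82%), Sp100 and Tnfrsf10b, which was 2.30-fold higher in #B-20 (log2 fold change 1.20, SE 0.17, FDR = 3.00e-05). At 6 h the count was 2 without replicate 1 or without replicate 2 of #B-20 at 6 h, with Ephx1 and Tnfrsf10b as the additional members. Gadd45b was lower in #B-20 than in #A-59 at each time (-0.57, -0.77 and -0.77, FDR = 0.0126, 6.64e-04 and 7.67e-04), and Trp53 was higher at 6 h (0.35, FDR = 0.0149) and 18 h (0.53, FDR = 7.95e-04).

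Other genes of the pathway were examined as 3 lists. Of 22 further p53 targets 20 were tested, and at 18 h against 0 h the number called, all higher, was 2 for the parental line (10% of the list, where 10.3% of all genes were called in either direction), 1 for #A-59 (5%, against 8.76%) and 2 for #B-20 (10%, against 4.80%). Trp53i11 rose in each genotype (log2 fold change 1.57, 1.21 and 1.42, FDR = 2.02e-08, 3.72e-07 and 3.22e-07). Ddit4, an mTORC1 inhibitor induced by stress, rose in parental cells (1.26, FDR = 3.40e-05) and #B-20 (1.06, FDR = 2.89e-04). Psrc1 was called higher in #B-20 than in parental cells at each time but from few reads, with 3 to 8 counts in parental and 12 to 48 counts in #B-20 libraries. Of 22 genes that act upstream of p53 all were tested, and Cdkn2a was the one called in more than 1 of the 12 comparisons. At 18 h against 0 h, 0 of the 22 were called in each genotype. With FDR under 0.05 as the only limit, 12 passed in parental cells (1 higher and 11 lower, 43.8% of all genes). In #A-59 15 passed (2 higher and 13 lower, 44.2%), and in #B-20 12 did (1 higher and 11 lower, 35.1%). Their median log2 fold changes were -0.24, -0.46 and -0.24 in parental, #A-59 and #B-20 cells, beside 0.04, 0.02 and 0.03 over all genes. Cdkn2a, whose Arf product inhibits Mdm2, was called lower than in parental cells at 18 h in #A-59 (-2.40, FDR = 3.89e-04) and #B-20 (-1.42, FDR = 0.00557), at 8 to 52 counts per library. Of the p53 relatives, Trp63 was not tested. Trp73 was called lower at 18 h than at 0 h in each genotype (FDR = 1.02e-04, 4.72e-05 and 1.57e-04), with 46 and 34 counts at 0 h and 1 and 3 counts at 18 h in parental libraries. At 6 h Trp73 was called higher in #A-59 than in parental cells (log2 fold change 1.60) and lower in #B-20 than in #A-59 (-1.35).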

How the data were processed

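RNA of WEHI-231 cells was measured as sequencing counts in 18 libraries, assigned to 9 groups of 2 by their labels. The authors deposited raw counts, 1 whole number per library and Ensembl gene, without normalization. Per the submitters' processing notes and the study's methods, non-stranded mRNA libraries were sequenced single-end, base calls were converted with bcl2fastq 2.20.0.422, reads were aligned to GRCm38 with STAR 2.5, and featureCounts 1.5.0-p1 assigned them to genes. The floor of 3 counts covers counting error only, because reads lacking molecular identifiers are not independent molecules.

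Everything else was computed from these counts in R 4.3.3. In edgeR 4.0.16, filterByExpr left 15318 genes, TMM scaled the libraries, and a robust quasi-likelihood model took in the 18 libraries with 9 group means, so that the spread was shared across groups with only 2 libraries each. P-values were adjusted over all tested genes (Benjamini-Hochberg). Contrasts were clone against parental cells, stimulated against resting cells, the difference of both responses (interaction) and clone against clone. The scripts were tested on simulated data.

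All members are accounted for. Values of every library are given for members called in a contrast of a clone with parental cells, of a stimulated with its resting group or in an interaction, and for Trp53, Mdm2 and Ccng1. Of the lists of other p53 targets, genes upstream of p53 and p53 relatives, genes called in 2 or more of the 12 comparisons are named. Values of Zmat3 by library, and of Hipk2 and Rchy1, were added after they had been seen. The members and lists were chosen with earlier results of these data known.

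Alternative settings were DESeq2 1.42.0, its size factors within edgeR, no filter (33978 genes), 10 or more counts required in each library (11829 genes), a fit restricted to the groups of a contrast, a block for the replicate number, a GC content correction (loess span 0.5, GC known for 99.2% of tested genes) alone or joined with that block, an FDR under 0.05 in place of both limits, and the omission of each library in turn. Gene positions and promoters are those of RefSeq for GRCm38. The reads and the other cells of the study were not analysed here, and 1 gene of the B cell marker list is not reported here.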

Additional observations from a re-analysis of the deposited data

Results flagged for a closer look

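Both clones were compared with the same parental libraries, and for 2 members the effect differed between the clones by the direct test of #B-20 against #A-59 in edgeR. Against parental cells, Sp100 was lower in #B-20 at each time and higher in #A-59 at 6 h at an FDR under 0.05. For Sp100 the log2 difference (#B-20 minus #A-59) measured -1.09 in resting cells, -1.18 after 6 h and -1.29 after 18 h. For Tnfrsf10b it was 1.20 at 18 h. Each of these differences passed the FDR and fold limits in every alternative and without any single library. Each clone is a single isolate, so that a property of the isolate and an effect of the Tfeb mutation cannot be told apart.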

How the results depend on the processing

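No called member changed its direction under any alternative. Counts of called members were within 1.5 times the reported count in 152 of 171 values from other settings and in 333 of 342 values with a library left out. The 19 others were as follows. The count for #B-20 against parental cells at 0 h was 2 with the GC correction, 2 with the GC correction and the replicate block, and 2 without a filter, and that for #A-59 at 6 h against 0 h was 0 with only the groups compared, where Ephx1 had an adjusted p = 0.0254. With an FDR under 0.05 as the only limit, 17 (6 h) and 7 (18 h) members differed from parental cells in #A-59, and 6 (0 h), 6 (6 h) and 9 (18 h) did in #B-20. Responses at 6 and 18 h then counted 7 and 16 members for parental cells, 9 and 15 for #A-59, and 2 and 13 for #B-20, the 6 h interaction of #A-59 counted 1, and the clones differed in 5, 12 and 6 members. With a library left out, counts ranged from 1 to 2 for #B-20 against parental cells at 0 h and at 6 h, from 1 to 7 for #B-20 at 18 h against 0 h, from 0 to 1 for the 6 h interaction of #A-59, and from 1 to 2 between the clones at 6 h. The median log2 fold change of the members moved beyond the replicate SD in 2 values from other settings and in 6 with a library left out. It did not in 150 and 336 values. The median of the members was between 0.01 and 0.16 at 18 h in parental cells. The replicate number as a block changed 1 count, #B-20 at 18 h against 0 h, which became 3 through the loss of Sp100 and 5 with the GC correction. Same-numbered libraries were not shown to be paired: correlations of the replicate differences ranged from -0.026 to 0.32 over 36 pairs of groups, with 14 above 0.1. Members with few counts, above all Gadd45g, Gadd45a and Ephx1, are limited by depth.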

Other observations

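Genes within 500 kb of the members that differed between genotypes were examined as positions in GRCm38. Around Ephx1, 13 genes were tested, and edgeR called 1 of them in a comparison of a clone with parental cells, Tmem63a, which was higher in #A-59 at 6 h. Around Tnfrsf10b, 12 genes were tested, and Rhobtb2 was called lower in #A-59 than in parental cells at 0, 6 and 18 h. Between the clones at 18 h, where Tnfrsf10b was called, Rhobtb2 was not (log2 fold change 0.19, FDR = 0.194, edgeR). The neighbours of Tnfrsf10b were not examined in #B-20 against parental cells. Around Sp100, 13 genes were tested between the clones, and Gpr55 was called lower in #B-20 than in #A-59 at 0 and 6 h and Gm7609 and Gm2619 at 6 and 18 h. Sharing of reads between Gm7609, Gm2619 and Sp100 was not measured.

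Among the genes that act upstream of p53, Hipk2, which encodes a kinase that phosphorylates p53, was lower in #B-20 than in parental cells at 6 h by 3.30-fold (log2 fold change -1.72, SE 0.17, adjusted p = 3.49e-07, edgeR). Hipk2 was also lower in #B-20 at 0 and 18 h at an FDR under 0.05, and did not pass that limit in #A-59. Among the further targets, Rchy1, a ubiquitin ligase of p53, was 2.06-fold higher in #B-20 than in parental cells at 6 h (log2 fold change 1.04, SE 0.10, adjusted p = 1.29e-07, edgeR). At an FDR under 0.05 Rchy1 was also higher in #B-20 at 0 and 18 h and in #A-59 at 0 and 6 h.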
